A study of Drosophila melanogaster with 16 samples.

Results

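The control larval CNS of this series was the genotype nsybGal4/+, the pan-neuronal driver line with no UAS transgene, and it was represented by 4 of the 16 libraries, chosen by their labels. Each library held RNA from the whole CNS of 20 wandering larvae of the third instar, raised at 25 °C. The other 12 libraries, 4 for each genotype, came from TFAM overexpression (nsybGal4>UAS-TFAM3M), TFAM overexpression with knockdown of ATF4 added (the same transgene and UAS-ATF4 RNAi) and ATF4 overexpression (nsybGal4>UAS-ATF4-HA). All 4 genotypes carry Gal4 under the promoter of neuronal Synaptobrevin, so the control is a driver line and not a wild-type strain, and each library sampled neurons, glia, precursors and any tissue left on the dissected CNS. The pools were separate, but no source says whether they were collected or prepared apart in time, so the spread between them may be partly technical.

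The larval CNS consists of the brain lobes, with the growing optic lobes, and the ventral nerve cord. Neuroblasts, its stem cells, divide to renew themselves and to produce ganglion mother cells, which divide once more into neurons or glia. At the wandering stage a working larval circuit therefore sits beside a large population of immature adult neurons. Glia wrap the organ as a blood-brain barrier, surround the cell bodies in the cortex and infiltrate the synaptic neuropil. The ring gland, which makes ecdysone, juvenile hormone and adipokinetic hormone, lies on the brain, while fat body, imaginal discs, muscle and trachea lie against the CNS.

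The tissue label was checked against 3 defining genes, given in CPM (each gene's count scaled to the library total) for replicates 1 to 4. Elav, the neuronal RNA-binding protein, had 1065, 957, 445 and 779 CPM. The glial homeobox factor Repo had 130, 135, 100 and 148 CPM. Deadpan (dpn), a Hes-family factor of neuroblasts, had 13.6, 13.6, 11 and 11.9 CPM. The neuronal and glial markers were present in every control library, and replicate 3 was lowest for both. For dpn, 59.3% of the exon length is shared with the antisense gene asRNA:CR44275. The counting was run at default settings, which do not use strand and leave out reads that overlap several genes. Reads from the shared part of dpn may thus be lost, so its CPM can understate its level. In bulk tissue, fewer cells of a type and less RNA per cell cannot be told apart.

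The control libraries held 18215062 to 23628142 counts over 17698 genes, against 20946531 to 24778270 in the other genotypes, and the floor of 3 counts lay between 0.127 and 0.165 CPM, for counting error only. In the files, the 38 genes of the mitochondrial genome had 0 counts in every control library, which does not measure their expression. TFAM had 71.3 to 130 CPM in control. It had 405 to 650 CPM with TFAM overexpression, 410 to 630 CPM with ATF4 RNAi added and 69.5 to 89.2 CPM in the libraries labelled ATF4 overexpression. The ATF4 gene, crc, had 186 to 211 CPM in control and 180 to 193 CPM in the libraries labelled ATF4 overexpression, so its counts do not check that label. For crc, 73.5% of the exon length is shared with CG46314 on the same strand, so reads from that part may have been left uncounted.

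In the control CNS, 8263 genes had at least 1 CPM in every library. They included 8021 of 13829 protein-coding genes and 135 of 2721 noncoding RNA genes, while 3602 genes had no count in any control library. Among chromosomes, 73.9% of the genes on chromosome 4 and 52.5% of those on X reached this level, against 42.2% to 48.4% on the arms of chromosomes 2 and 3, and 0 of 113 genes on Y. Expression was spread over many genes: 546 genes held 50% of the control counts and 3885 held 90%. At the other end, 139 genes averaged at least 1000 CPM, and protein-coding genes took 98.0% ± 0.0179 of the counts (SD, n = 4).

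Control replicates 3 and 4 stood apart, each in its own set of genes, and both are given beside the results that they touch. In replicate 3, transcripts with little exonic sequence were higher and those with much were lower than in the other control libraries. In replicate 4, 11 genes were at least 4 times above all other control libraries and 6 were at least 4 times below, on the scale of CPM with 1 added, against 1 and 0 in replicate 3 and none in replicates 1 and 2. The correlation of log2 CPM across genes, which are not independent replicates, was between 0.8956 for replicates 1 and 3 and 0.9947 for replicates 1 and 2.

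The single most abundant transcript of the control CNS was Obp44a (2R: 8134170 to 8135315), which encodes a small secreted member of the odorant-binding protein family. It had 9675, 11195, 15341 and 12532 CPM in replicates 1 to 4, and 8671 to 13788 CPM in the other genotypes. Of the 20 most abundant genes only Act5C exceeded it, and only in replicate 1, and 19.1% of its exon length is shared with Pabp2 on the other strand. Act5C, a cytoplasmic actin, had 9922, 9467, 7513 and 7766 CPM. The elongation factor eEF1alpha1, which brings aminoacyl-tRNAs to the ribosome, had 8597, 8676, 7397 and 9563 CPM. By mean CPM these 3 genes stood well above the next, alphaTub84B, an alpha-tubulin of microtubules with 5796, 6181, 6670 and 6066 CPM. Df31, a chromatin protein that binds RNA, had 4071, 4488, 7955 and 4985 CPM, with replicate 3 highest. The beta-tubulin betaTub56D had 4645, 4820, 4568 and 4720 CPM and differed little between libraries.

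The remaining 14 of the 20 most abundant genes by mean CPM fell into a few kinds. Of the 20, 5 matched the names of cytosolic ribosomal proteins, namely RpS2, RpS3A, RpL5, RpL10 and sta, and RpL10Ab is another ribosomal protein gene. RpS2 had 2356, 2911, 7511 and 3393 CPM, and replicate 3 was likewise highest for the other 5. The chaperones were Hsc70-4 with a mean of 4474 ± 294 CPM, Hsp83 with 3145 ± 422 CPM and the small heat shock protein Hsp23 with 3599, 3503, 4220 and 2623 CPM (SD, n = 4 here and below). His3.3B, which encodes the replacement histone H3.3, averaged 3900 ± 497 CPM. The poly(A)-binding protein gene pAbp had 3477, 3423, 3336 and 3352 CPM, the narrowest range of the 20. The axonal gene failed axon connections (fax) had 4488, 4143, 2772 and 3185 CPM, and 14-3-3epsilon averaged 3425 ± 604 CPM, both lowest in replicate 3. The translocase eEF2 completed the 20 with 3580 ± 336 CPM.

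**Figure D1:**
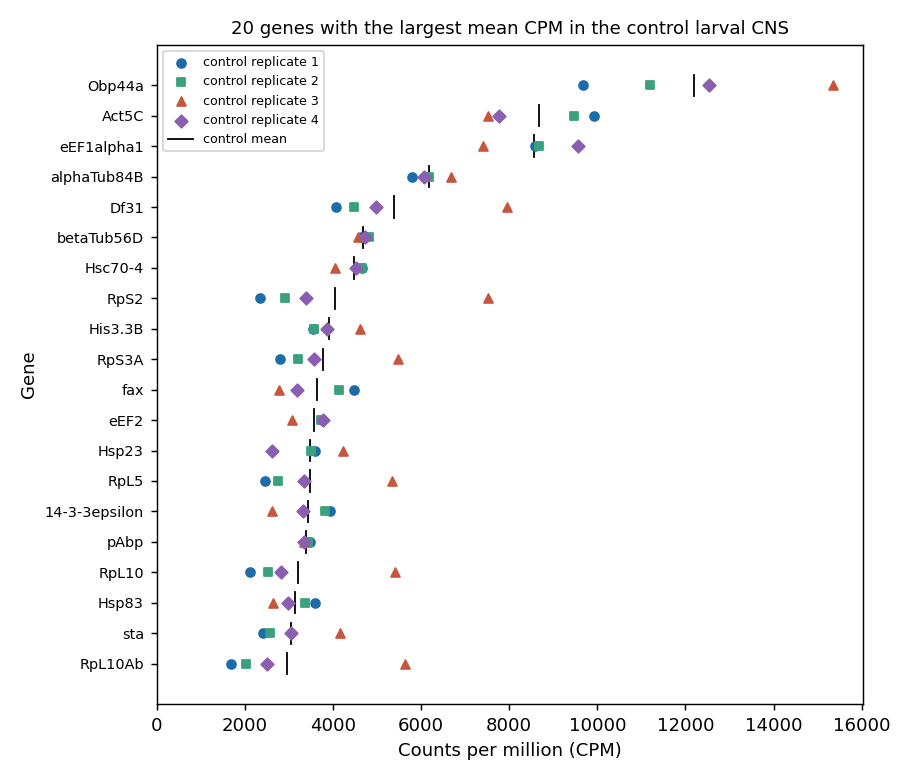
CPM (horizontal axis) of the 20 genes with the largest mean in the control larval CNS, 1 symbol per library and a black line at the mean of 4. Obp44a, Act5C and eEF1alpha1 lie above all others, and replicate 3 (triangles) lies to the right of the other libraries for the ribosomal protein genes.

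Levels of different genes can be compared only per length, so TPM values (counts per exon base, scaled to the same total in each library) were computed from the summed exon length of each gene. On the TPM scale the median of the 8190 detected genes with a length was 37.4. Obp44a again led with 21268 ± 1189 TPM, followed by RpL41 with 15718 ± 7526 TPM and RpLP2 with 7956 ± 4957 TPM. The large errors of both ribosomal genes came with replicate 3, in which RpL41 had 5738 CPM against 1528, 2019 and 2068 CPM in replicates 1, 2 and 4. Next came RpS27A (7518 ± 944 TPM), Hsp23 (7496 ± 1370 TPM), alphaTub84B (6733 ± 731 TPM), eEF1alpha1 (6729 ± 1494 TPM), RpL21 (6648 ± 1176 TPM) and RpL23 (6508 ± 3063 TPM). RpS27A encodes a ribosomal protein fused to ubiquitin. The SDs of neighbours in this order overlapped, Obp44a and RpL41 included. Because all genes were measured in the same libraries, such overlap does not say whether 2 genes differ.

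As a family, the 81 cytosolic ribosomal protein genes matched by name took 13.6% ± 5.03 of the control counts (SD, n = 4). The shares were 9.73%, 11.1%, 21.0% and 12.8% in replicates 1 to 4, so replicate 3 lay far above the other libraries. With 6 further names of the family added after seeing the data, the share of the 87 genes was 14.3% ± 5.35. Of the 81 genes, 79 had at least 1 CPM in every library, all except RpS10a and RpS28a, and 52 of the 100 most abundant genes belonged to the family. Per length the 79 ranged from 10.5 TPM for RpS19b to 15718 TPM for RpL41, with a median of 3303 TPM. Replicate 3 was the highest library for 74 of the 79. Its log2(CPM + 1) exceeded the mean of the other 3 libraries by a median of 0.78, ranging from -0.09 for RpL22 to 2.32 for RpL38, which had 873, 1205, 5473 and 1247 CPM.

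Elongation factors differed less between libraries. Their 7 genes took 1.85% ± 0.0799 of the counts, or 18258, 18589, 17608 and 19527 CPM. Besides eEF1alpha1 and eEF2 they included eEF5, needed for peptide bonds between prolines, with 3840 ± 328 TPM, and eEF1alpha2 with 1453 ± 435 TPM. Of 72 mitochondrial ribosomal protein genes, 71 were detected, with a median of 79.8 TPM and a share of 0.274% ± 0.0884. Here replicate 3 was the highest library for 65 of the 71, and its median excess over the other 3 libraries, 0.78 on the log2 scale, was that of the cytosolic genes.

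Genes of the respiratory chain followed the same order of libraries. Among the nuclear genes of complex I, the NADH dehydrogenase, 32 of 40 were detected, with a median of 161 TPM, and their sum was 2234, 2511, 4345 and 2955 CPM in replicates 1 to 4. In complexes II to V, 34 of 54 were detected, with a median of 433 TPM and a sum of 8754, 9650, 13277 and 11155 CPM. Most of the genes that were not detected carry an L suffix, which marks duplicated copies such as COX4L and Cyt-c1L. Replicate 3 was highest for 30 of the 32 and for 29 of the 34. The proteasome, which degrades ubiquitinated proteins, had 31 of 32 subunit genes detected between 228 and 700 TPM, and a sum of 7996, 8504, 9932 and 7873 CPM.

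Cytoskeletal and chaperone genes differed in how steady they were. Tubulins took 1.12% ± 0.0323 of the counts, with 10810, 11399, 11552 and 11166 CPM, nearly all from alphaTub84B and betaTub56D. Actins took 1.05% ± 0.129, mainly as Act5C (5671 ± 1567 TPM) and Act42A (2173 ± 434 TPM). Reads of such near-identical paralogs may have been divided between copies by the mapping. Constitutive chaperones took 1.00% ± 0.117, led by Hsc70-4 (3190 ± 675 TPM). The 13 genes of the inducible heat shock list took 0.564% ± 0.114, almost all from Hsp23, Hsp27 and Hsp26. Hsp27 had 1782, 1775, 2232 and 1199 CPM and Hsp26 had 269, 238, 231 and 118 CPM, both lowest in replicate 4. Hsp70Aa and Hsp70Ab stayed at or under 3 counts in every control library, while Hsp68 had 46.9, 34.9, 12.2 and 14.9 CPM. Hsp22 also stayed at or under 3 counts, but its exons are all shared with CG4456 on the same strand. Its counts therefore do not measure its expression.

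Replication-dependent and replacement histone genes differed widely in their counts. The part of the kind of mRNA, and of the mapping of reads to near-identical copies, was not tested. Of 111 replication-dependent histone genes, whose mRNAs normally lack a poly(A) tail, 109 stayed at or under 3 counts in every control library of these poly(A)-selected preparations. The replacement variants, whose mRNAs are polyadenylated, summed to 5462, 5669, 8899 and 6248 CPM. Per length they were led by His4r with 3410 ± 1480 TPM and His3.3B with 2894 ± 141 TPM. His4r had 912, 1021, 2983 and 1179 CPM, with replicate 3 far above the other libraries.

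Glycolysis was the family in which replicate 4 stood out. All 12 genes of the list were highest in replicate 4, and their sum was 4679, 5413, 5186 and 9420 CPM, against 3868 to 7333 CPM in the other genotypes. Gapdh2, a glyceraldehyde-3-phosphate dehydrogenase, was the most abundant per length with 1615 ± 652 TPM, and had 960, 1043, 946 and 1884 CPM. Ald1, the aldolase, had 626, 723, 513 and 1432 CPM. Ldh, which makes lactate from pyruvate, had 65.9, 87.9, 112 and 262 CPM. The library with the highest glycolysis sum was also the one with the highest sums of muscle and larval cuticle genes, given below, and the part of either tissue in the glycolysis values was not tested.

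All 12 pan-neuronal genes were detected in the control CNS. Their sum was 5539, 5103, 2340 and 4666 CPM in replicates 1 to 4, and replicate 3 was the lowest library for each of the 12. Fne, an RNA-binding relative of Elav, had 1317, 1170, 542 and 902 CPM, and the adhesion molecule CadN had 899, 769, 298 and 591 CPM. Among genes of the synapse, nSyb, the vesicle SNARE whose promoter drives Gal4 here, had 508, 518, 280 and 512 CPM. The calcium sensor of release Syt1 had 418, 407, 236 and 437 CPM, and the active-zone scaffold brp had 407, 354, 161 and 368 CPM. The voltage-gated sodium channel para had 132, 140, 59.4 and 186 CPM. Per length nSyb stood first of the list with 220 ± 79.1 TPM, beside fne with 205 ± 93.9 TPM and elav with 151 ± 67.2 TPM. Their SDs overlapped, but replicate 3 was lowest for all of them, so the overlap does not say whether they differ. The list has a median exon length of 10138 bases, long against the 2364 bases of all genes with a mean of at least 5 CPM.

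All 14 genes of transmitter identity reached 1 CPM in every control library. Their sum was 1052, 1109, 770 and 1267 CPM. The vesicular glutamate transporter VGlut, which marks motor neurons among other cells, was the most abundant per length with 115 ± 26.8 TPM and had 347, 370, 292 and 350 CPM. GABAergic genes followed, with Gad1, which makes GABA, at 89.6 ± 44.2 TPM and its vesicular transporter VGAT at 68.7 ± 9.03 TPM. Gad1 had 144, 159, 92.8 and 277 CPM, highest in replicate 4, whereas VGAT had 94.0, 88.9, 101 and 104 CPM. The cholinergic locus encodes both VAChT (42.8 ± 17.9 TPM) and ChAT (28.3 ± 9.94 TPM). They share exons on the same strand, so reads from those exons may have been left uncounted for both.

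The monoaminergic genes named here lay lower per length than VGlut, Gad1 and VGAT, with Ddc and Vmat near ChAT. Vmat, the vesicular monoamine transporter, had 25.3 ± 10.5 TPM, with 26.2% of its exon length shared with CG13330. Ddc, the decarboxylase of dopamine and serotonin synthesis, had 37.4, 40.5, 40.2 and 49.4 CPM, or 28.7 ± 5.28 TPM. The tryptophan hydroxylase of serotonin neurons, Trhn, had 17.6, 18.7, 31.7 and 39.6 CPM. The tyrosine hydroxylase ple and the histamine enzyme Hdc were the lowest of the list, with 1.85 ± 0.898 and 1.90 ± 0.622 TPM. Enzymes of octopamine synthesis were present as Tdc2 (8.21 ± 2.99 TPM) and Tbh (11.7 ± 4.94 TPM).

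Receptors and channels of mature neurons were nearly all detected. Of 10 nicotinic acetylcholine receptor subunits, 9 were detected, from 5.31 TPM for nAChRalpha3 to 56.2 TPM for nAChRbeta1, and nAChRbeta3 had no count. Their sum was 815, 774, 510 and 803 CPM. All 14 voltage-gated ion channel genes were detected, from 2.52 TPM for KCNQ to 31.8 TPM for the potassium channel Shal. The channel sum was 1102, 1023, 564 and 1238 CPM, lowest in replicate 3 as for the pan-neuronal genes.

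Neuroblast genes were detected in every control library. The 8 genes summed to 713, 714, 522 and 712 CPM, so that replicates 1, 2 and 4 lay within 2 CPM of each other and replicate 3 lay apart. Miranda (mira), the scaffold that carries fate determinants into the ganglion mother cell, had 258, 273, 194 and 264 CPM. The Snail-family factor Worniu (wor) had 111, 123, 120 and 122 CPM. Asense (ase), a proneural factor of neuroblasts, had 98.6, 93.3, 61.9 and 97.4 CPM. Per length mira (145 ± 39.3 TPM) and wor (103 ± 14.7 TPM) had overlapping SDs, which within the same libraries does not say whether they differ.

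Genes of new-born neurons and ganglion mother cells were higher. Their 6 genes summed to 6475, 5791, 2347 and 4781 CPM. Prospero (pros), the homeodomain factor that stops self-renewal, had 3312, 2972, 1106 and 2382 CPM and was the only gene of the cell type lists among the 100 most abundant. Headcase (heca) had 1865, 1661, 581 and 1443 CPM. Nerfin-1, a zinc-finger factor that keeps new neurons from reverting, had 893, 777, 442 and 621 CPM. Pros spans 24892 bases of exon and heca 15063, so per length the order was different, with nerfin-1 first at 423 ± 173 TPM, pros at 197 ± 97.4 TPM and heca at 185 ± 92.0 TPM.

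Timing genes, which date neuroblasts and the neurons that they produce, summed to 4423, 3881, 1721 and 3262 CPM. Syp, an RNA-binding protein of late neuroblasts, had 1635, 1493, 717 and 1178 CPM. Its counterpart of early neuroblasts, Imp, had 192, 197, 71.1 and 215 CPM. Per length Syp was thus far above Imp, with 223 ± 97.3 against 24.7 ± 11.3 TPM. Broad (br), a factor of the ecdysone response and of maturing neurons, had 1335, 1136, 473 and 962 CPM, and chinmo, a marker of early-born neurons, had 303, 260, 118 and 294 CPM. Replicate 3 was lowest for all 8 timing genes, whose median exon length is 12652 bases.

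Transcription factors of the optic lobe, including the medulla temporal series (hth, ey, slp1, slp2, D, tll), were all detected, with 872, 818, 523 and 772 CPM in sum. Per length slp1 was first with 66.8 ± 8.65 TPM, and Vsx1 last with 21.0 ± 7.47 TPM. All 15 genes of cell division were detected, and their sum of 2348, 2491, 2229 and 2646 CPM varied little. PCNA, the sliding clamp of replication, led them with 494 ± 37.7 TPM and had 233, 267, 322 and 296 CPM. The mitotic kinase Cdk1 had 130, 148, 235 and 168 CPM.

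Glial lists differed in which library was highest. General glial genes summed to 968, 1123, 844 and 1515 CPM, highest in replicate 4. By gene they were divided, with 3 of the 6 highest in replicate 1 and 3 in replicate 4. Gs2, the glutamine synthetase of glia, had 329, 474, 306 and 752 CPM, and nrv2, a subunit of the sodium pump, had 291, 312, 304 and 440 CPM. Gcm, in contrast, had 58.4, 53.4, 37.2 and 43.4 CPM. Surface glia of the blood-brain barrier gave 389, 364, 254 and 499 CPM, with the transporter Mdr65 the most abundant at 113 ± 41.1 TPM and apn at or under 3 counts. Cortex glia were steady at 395, 416, 490 and 471 CPM, mostly from wrapper, which had 262 ± 4.87 TPM.

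Astrocyte-like and ensheathing glia summed to 946, 1059, 1476 and 1259 CPM, highest in replicate 3. Astrocytic leucine-rich repeat molecule (alrm) had 362, 458, 958 and 567 CPM and 622 ± 160 TPM, the highest level per length of any gene in the CNS cell type lists. The glutamate transporter Eaat1 had 215, 236, 311 and 294 CPM. Its relative Eaat2 and the GABA transporter Gat did not share this order, since both had their lowest value in replicate 3, at 97.7 and 93.2 CPM.

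Neuropeptide precursors, each made by small sets of neurosecretory cells or interneurons, were detected for 31 of 33 genes in the files. ETH, a hormone of the epitracheal cells outside the CNS, had no count, and Lk, a myotropic and diuretic peptide, reached at most 0.220 CPM. Both share over 90% of their exon length with antisense genes, so their counts do not measure their expression. The sum was 1808, 1996, 2385 and 2402 CPM. Per length the insulin-like peptide Ilp2, of the insulin-producing cells of the brain, was highest with 531 ± 124 TPM, and had 121, 151, 300 and 205 CPM. Ilp5 followed with 347 ± 77.6 TPM, Proc with 290 ± 67.4 TPM, Capa with 265 ± 42.4 TPM and Hug with 235 ± 18.6 TPM. Of these 5, the neighbours Ilp5, Proc, Capa and Hug had overlapping SDs, which within the same libraries does not say whether they differ. Ilp3, of the same insulin-producing cells, had 47.2, 54.3, 109 and 52.7 CPM. Ptth, the brain hormone that drives the prothoracic gland, had 6.69, 9.98, 14.6 and 8.71 CPM.

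Genes of segment identity, hormone response and immunity gave a profile of the stage and condition of the control larvae. Of the 8 Hox genes, 7 were detected, with abd-A (71.6, 96.8, 29.9 and 62.2 CPM) and Antp (69.9, 73.3, 39.3 and 71.4 CPM) the most abundant by CPM and the anterior gene lab at 0.494 to 1.48 CPM. In the ecdysone response list 12 of 13 were detected, summing to 3029, 2746, 1283 and 2048 CPM. The receptor EcR had 243, 244, 119 and 177 CPM, and the nuclear receptor Eip75B had 597, 552, 200 and 307 CPM. None of 13 antimicrobial peptide genes reached 1 CPM in every library, and the largest value of any was 1.67 CPM for AttB. All 8 activity-regulated genes were detected, Arc1 with 109, 84.7, 102 and 96.4 CPM, and Hr38 with 1.70 to 4.40 CPM.

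All 8 dosage compensation genes were detected, among them both noncoding RNAs that coat the male X chromosome. LncRNA:roX1 had 399, 714, 612 and 507 CPM. LncRNA:roX2 had 6.73, 24.7, 48.4 and 6.86 CPM, so replicates 1 and 4 lay well below replicates 2 and 3. The protein genes differed less, with msl-2 at 61.7, 77.4, 69.9 and 64.7 CPM and mle at 65.4 ± 20.9 TPM. The sex of the larvae is not given in the sources used here.

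Tissues attached to the CNS were read from their own marker lists. Prothoracic gland genes differed widely between libraries. Of the 5 measured, phtm, sad, spok, sro and dib, which encode enzymes of ecdysone synthesis, only spok reached 1 CPM in every library. The sum of the 5 was 94.1, 26.6, 112 and 3.89 CPM, against 2.46 to 48.0 CPM in the other genotypes. Phantom (phtm) had 28.9, 8.95, 43.5 and 0.556 CPM, shadow (sad) had 25.0, 6.19, 33.5 and 0.602 CPM, and spookier (spok) had 34.7, 8.99, 27.0 and 1.11 CPM. Replicates 1 and 3 were thus above every library of the other genotypes for phtm and sad, and replicate 4 was below 1.2 CPM for all 3. Akh, of the corpora cardiaca in the same gland, had the same lowest library, with 8.76, 7.82, 17.8 and 2.08 CPM. Jhamt, the last enzyme of juvenile hormone synthesis in the corpus allatum, had 2.50 and 2.20 CPM in replicates 1 and 3 and at most 0.0463 CPM in replicates 2 and 4.

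Fat body genes were detected for 7 of 7, with a sum of 1265, 918, 759 and 814 CPM. The lipoprotein precursor apolpp, which is also made in other tissues, gave most of it with 870, 688, 284 and 680 CPM. The larval storage protein Lsp1beta had 76.9, 59.1, 45.6 and 34.6 CPM. Fbp1, the receptor for these proteins, had 184, 58.2, 249 and 34.0 CPM, and Fbp2 had 41.3, 7.86, 68.6 and 15.8 CPM. The replicates with the most Fbp1 and Fbp2, 1 and 3, were those with the most prothoracic gland RNA, and the part of one tissue in the values of the other was not tested.

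The sums of the muscle, larval cuticle and salivary gland lists were highest in replicate 4. Muscle genes, 12 of 14 detected and Act79B at or under 3 counts, summed to 96.2, 76.1, 83.3 and 265 CPM, against 75.3 to 145 CPM in the other genotypes. Act57B had 19.6, 14, 13.5 and 66.2 CPM, the myosin light chain Mlc2 had 7.36, 5.56, 16.4 and 49.1 CPM, and myosin heavy chain (Mhc) had 4.32, 2.62, 1.81 and 22.8 CPM. Replicate 4 was the highest library for 9 of the 10 muscle genes with a mean of at least 5 CPM. Larval cuticle genes, 5 of 8 detected and Cpr47Ea at 0, summed to 66.9, 112, 66.9 and 242 CPM, against 14.8 to 189 CPM. Lcp1 had 26.2, 56.5, 29.8 and 75.1 CPM, Lcp4 had 19.7, 18.1, 9.72 and 59.9 CPM, and Lcp3 had 12.4, 15.4, 14 and 66.8 CPM. The wider cuticle protein family of 118 genes summed to 159, 205, 173 and 297 CPM, but its members were divided. Of its 8 genes with a mean of at least 5 CPM, replicate 4 was highest for 4 and lowest for 3. Salivary glue genes, none of 6 at 1 CPM in every library, summed to 6.73, 3.43, 1.04 and 37.7 CPM, against 0.573 to 201 CPM in the other genotypes. Sgs7 had 1.90, 1.22, 0.439 and 12.7 CPM, and Sgs3 had 1.86, 0.949, 0.165 and 11.2 CPM.

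Other attached tissues were lower or steadier. Hemocyte genes, 4 of 8 detected, summed to 84.9, 68.1, 48.2 and 73.0 CPM, largely from Pxn, a peroxidase of the matrix, with 56.1, 41.6, 26.7 and 32.3 CPM. Hml, a defining hemocyte gene, had 7.07, 3.48, 1.92 and 4.45 CPM, and PPO2, of crystal cells, had 8.97, 12.7, 8.62 and 19.7 CPM. Tracheal genes, 4 of 4 detected, summed to 72.4, 61.4, 44.8 and 58.0 CPM. Eye disc genes summed to 90.1, 78.8, 48.5 and 89.8 CPM, mostly from sev (68.6, 65.6, 38.9 and 71.2 CPM), while the adult opsin ninaE was at or under 3 counts. Wing and leg disc genes, 5 of 5 detected, summed to 219, 198, 120 and 150 CPM, mostly from ap, which neurons of the nerve cord also express. Midgut genes, 0 of 6 detected, summed to 4.57, 0.678, 0.878 and 0.648 CPM, and germ line genes to 12.5, 13.4, 11 and 14.7 CPM.

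**Figure D2:**
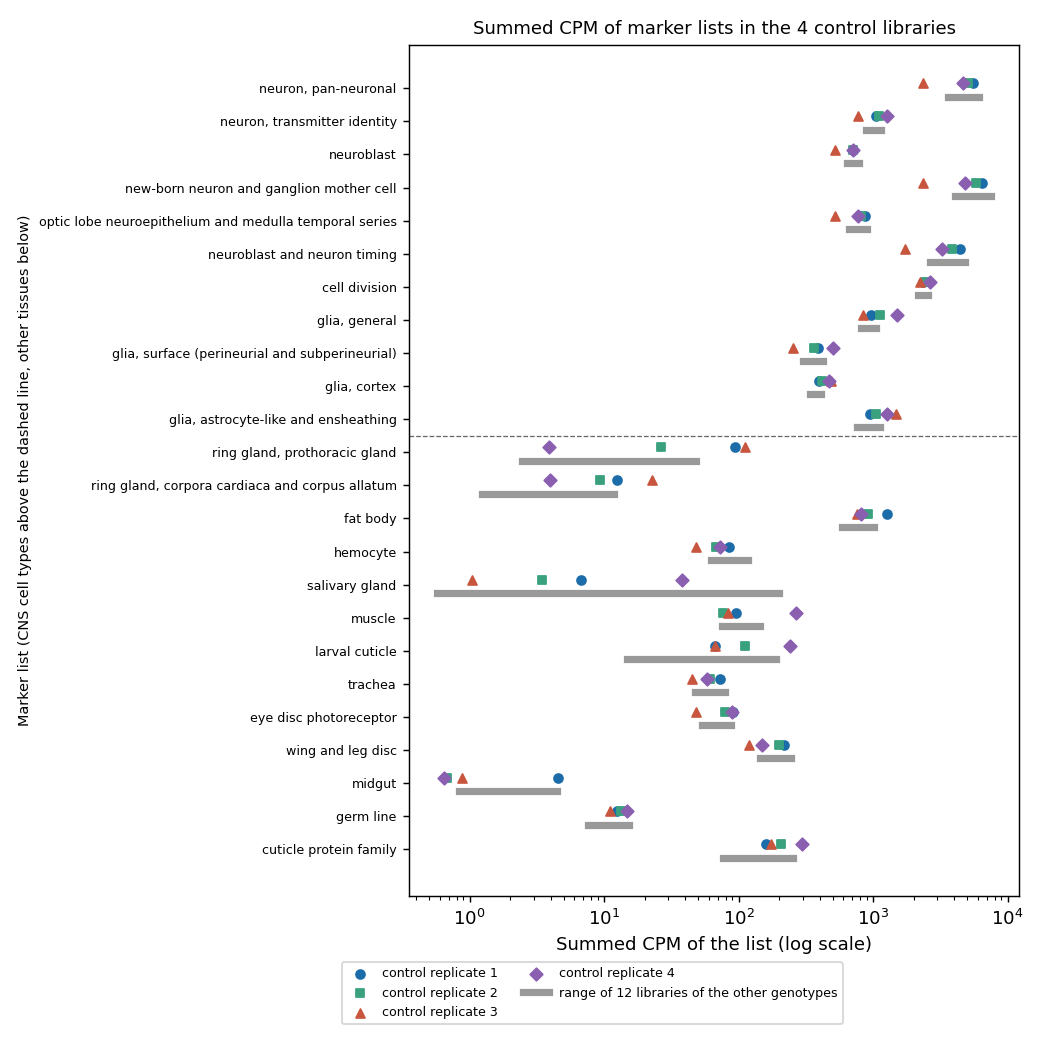
Summed CPM (log axis) of each marker list in the 4 control libraries (symbols) and the range of the 12 libraries of the other genotypes (grey bars), with CNS cell types above the dashed line and other tissues below. Replicate 3 is often lowest in CNS lists, whose highest control library is 1.19 times (cell division) to 2.76 times (new-born neuron) the lowest. Several other tissues, such as trachea (1.62 times) and fat body (1.67 times), lie within that range. Prothoracic gland (3.89 to 112 CPM) and salivary gland (1.04 to 37.7 CPM) differ more widely between control libraries.

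Much of the difference between control libraries followed the length of the transcript. Across the 7533 genes with a mean of at least 5 CPM and a known exon length, the difference of log2(CPM + 1) from the control mean changed by -0.3817 per doubling of exon length in replicate 3. The slope was 0.2175 in replicate 1, 0.1354 in replicate 2 and 0.0287 in replicate 4. In replicate 3 the median difference was 0.696 for the 92 genes with under 500 bases of exon and -0.86 for the 453 genes with 8000 bases or more. In replicate 1 it was -0.483 and 0.427 in the same classes. Replicate 3 accounted for 55.5% of the variance of these differences. Against the mean of all 16 libraries its slope was -0.4716, the lowest of the series, and the next was -0.2112 in TFAM overexpression replicate 2. What set the slope was not tested.

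**Figure D3:**
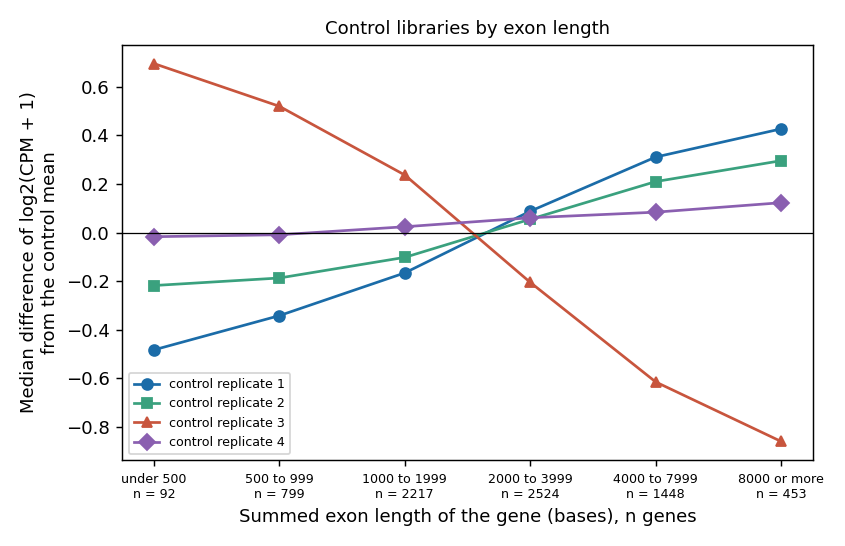
Median difference of log2(CPM + 1) from the control mean (vertical axis) for genes in 6 classes of summed exon length in bases (horizontal axis), 1 line per control library. Replicate 3 goes from 0.696 in the shortest class to -0.86 in the longest, and replicate 1 from -0.483 to 0.427.

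The order of the gene lists by spread changed once this trend was taken out. Over the 7602 genes with a mean of at least 5 CPM, the SD of log2(CPM + 1) over the 4 control libraries had a median of 0.297 and quartiles of 0.176 and 0.453, and with the trend removed the median was 0.162. Some lists of long genes then came near the value of all genes, with pan-neuronal genes at 0.568 as counted and 0.181 with the trend removed, and new-born neuron genes at 0.556 and 0.175. Other long lists fell but stayed above it, with timing genes at 0.650 and 0.227, ecdysone response genes at 0.596 and 0.237, and voltage-gated ion channel genes at 0.531 and 0.289. Among short genes, cytosolic ribosomal proteins came near the value of all genes at 0.422 and 0.159, and mitochondrial ribosomal proteins at 0.413 and 0.163. Without replicate 3 the median of all genes was 0.131.

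Among attached tissues the lists differed. Prothoracic gland genes had a median SD of 2.02 as counted and 2.03 with the trend removed (3 genes), muscle genes 1.00 and 0.989 (10 genes), larval cuticle genes 0.996 and 1.08 (4 genes) and fat body genes 0.708 and 0.664 (7 genes). Tracheal genes were at 0.312 and 0.195 (3 genes), eye disc genes at 0.415 and 0.179 (3 genes) and wing and leg disc genes at 0.328 and 0.189 (4 genes), so that these lists came near the value of all genes. Glycolysis, at 0.491 and 0.446, and astrocyte-like and ensheathing glia, at 0.406 and 0.376, also kept most of theirs. Tubulins had the smallest spread of the lists as counted, at 0.141, and elongation factors the smallest with the trend removed, at 0.076. These are descriptions of 4 libraries, and no list was tested.

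**Figure D4:**
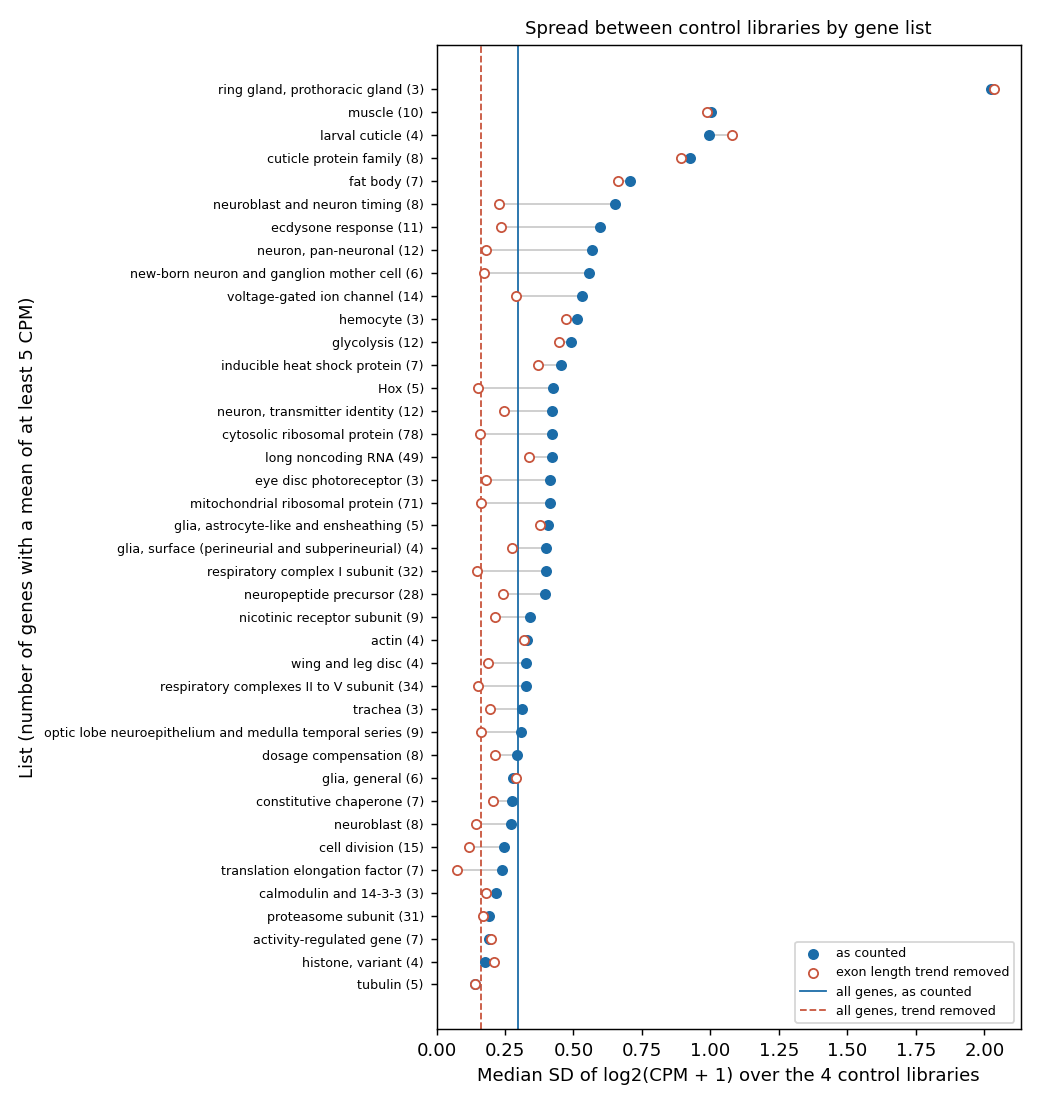
Median SD of log2(CPM + 1) over the 4 control libraries (horizontal axis) for lists with at least 3 genes at a mean of 5 CPM, as counted (filled) and with the exon length trend removed (open), with lines at the values of all genes, 0.297 and 0.162. Prothoracic gland, muscle and cuticle lists keep their place, and neuronal and ribosomal lists approach the dashed line.

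The 20 genes with the largest SD of log2(CPM + 1) had SDs from 1.324 to 3.278. Replicate 4 was the highest library for 10 of them and the lowest for 8. A first set was almost confined to replicate 4. CG32198 had 0, 0.0452, 0.439 and 106 CPM, CG13460 had 0, 0.0904, 2.64 and 124 CPM, and CG11300 had 0.0423, 0, 0.878 and 106 CPM. CG12310, with 67.8 CPM in replicate 4, and CG17134, CG13560 and CG43117, with 20.7 to 30.8 CPM there, had the same pattern. The salivary gland genes ng3 (new glue 3) and Pig1 (pre-intermoult gene 1) had 46.5 and 28.8 CPM in replicate 4 and under 0.8 CPM in the other control libraries. The 12 libraries of the other genotypes held these genes too. CG13460 had a median of 29.7 CPM over them and a highest value of 107 CPM, CG12310 had 15.5 and 83.1 CPM, CG11300 had 8.98 and 96.1 CPM, and Pig1 had 2.70 and 16.8 CPM. The median was at most 2.15 CPM for the other 5.

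A second set was lowest in replicate 4. It held phtm, sad and spok of the prothoracic gland, with the values given above. Cpr49Ac, a cuticle protein, had 53.3, 48.5, 34.1 and 4.03 CPM. CG9416 had 91.0, 68.0, 34.1 and 9.82 CPM. Blimp-1 and Hr4, transcription factors that respond to ecdysone, had 17.3, 15.1, 4.61 and 1.16 CPM and 80.2, 62.9, 19.9 and 9.17 CPM. Outside the 20, NLaz, a lipocalin, and Pepck2, of gluconeogenesis, were also low in replicate 4 alone, with 8.62 CPM for NLaz against 37.6 to 53.1 CPM in the other control libraries, and 1.85 CPM for Pepck2 against 11 to 16.1 CPM. The remaining 4 of the 20 were Mhc, highest in replicate 4, Fbp1, lowest there, Fbp2 and lncRNA:roX2.

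**Figure D5:**
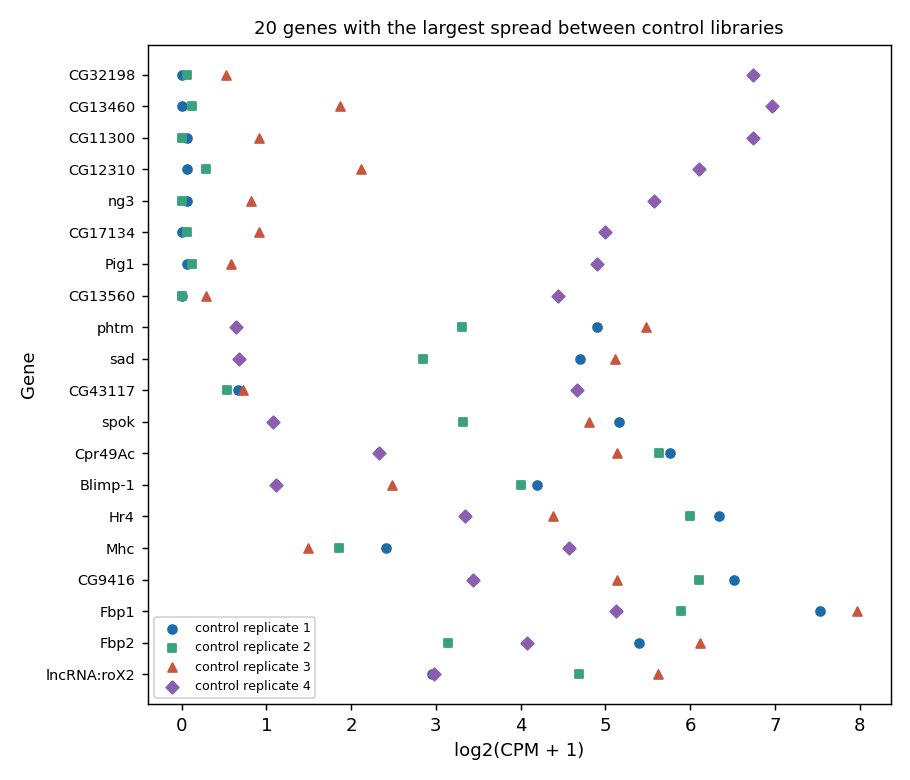
log2(CPM + 1) (horizontal axis) of the 20 genes with the largest SD over the control libraries among genes with a mean of at least 5 CPM, 1 symbol per library. Replicate 4 (diamonds) lies at the far right for the first 8 genes and at the far left for phtm, sad, spok, Cpr49Ac, Blimp-1, Hr4 and CG9416.

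At the other end, among genes with a mean of at least 50 CPM, the 10 with the smallest SD held their level within 3% over the control libraries. Flo1, a flotillin of membrane rafts, had 258, 258, 259 and 258 CPM. Nup35, of the nuclear pore, had 55.4, 55.8, 55.4 and 55.7 CPM, and Chi, a LIM-domain cofactor, had 137, 137, 137 and 136 CPM. The others were endos, Slip1, ras, key, Tsp42Ee, CG12096 and lt. Their exon lengths lay between 1249 and 5368 bases.

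Long noncoding RNAs were few but some were abundant. Of 2380 genes with such names, 124 were detected in every control library, and together they took 0.824% ± 0.0958 of the counts. LncRNA:cherub, known from asymmetric segregation in neuroblasts, had 3630, 3301, 1210 and 3396 CPM and ranked 23 by mean CPM. LncRNA:CR42862 had 2188, 1684, 1113 and 2356 CPM. Both are long and were lowest in replicate 3. Per length the short lncRNA:CR33938 was highest of the first 10 with 2402 ± 525 TPM, followed by lncRNA:CR34335 with 1077 ± 502 TPM and cherub with 689 ± 323 TPM. LncRNA:CR33938 had 540, 728, 867 and 448 CPM. LncRNA:CR34335 had 118, 141, 436 and 181 CPM, and lncRNA:CR30009 had 91.0, 100, 242 and 112 CPM, both highest in replicate 3. The heat shock RNA lncRNA:Hsromega had 123, 135, 261 and 223 CPM. The rest of the 10 were lncRNA:roX1, lncRNA:mimi, lncRNA:CR46006 and lncRNA:CR44832.

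The control libraries were then set against the mean of the other 3 genotypes, to find where the baseline differs from the rest of the series. With edgeR's quasi-likelihood test over 16 libraries, with calls made below 0.05 after Benjamini-Hochberg adjustment and from a 1.2-fold difference upward, 116 of 9731 genes were called, or 1.19% of those tested. Of these, 74 were higher in control (0.760%) and 42 lower (0.432%), and in 41 of the 116 no control library overlapped the other 12, against 0.565% of all genes tested. Without control replicate 3 the count was 76, of which 38 were higher in control, and 66 of these 76 genes were among the 116. TFAM itself was among the genes called lower in control, at a log2 difference of -1.55. Because the other genotypes differ from each other, the range of each is given below, and log2 values are control minus the mean of the others with their SE.

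Among genes higher in control, Ada1-1, a subunit of a transcriptional coactivator complex, had the largest fitted difference. It had 1.74, 1.76, 1.65 and 1.76 CPM in control, and 0 to 0.573 CPM in TFAM overexpression, 0 CPM with ATF4 RNAi added and 0 to 0.0437 CPM in the libraries labelled ATF4 overexpression. The fitted log2 difference was 5.99 ± 0.704 (edgeR adjusted p = 0.000811), which is no bound because many of the other libraries had no count. LncRNA:CR45625 had 0.723 to 0.926 CPM in control, against 0.283 to 0.955 CPM in TFAM overexpression and at most 0.0445 CPM in the other two genotypes (log2 3.68 ± 0.416, edgeR adjusted p = 0.000148). CR43086 had 2.22 to 3.95 CPM in control and at most 1.05 CPM in any other library (log2 2.53 ± 0.209, edgeR adjusted p = 1.11e-05). These 3 were called under every alternative run.

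The other pair among the 5 genes of largest difference lost their calls in some alternatives, to unequal degrees. Cyp6d5, a cytochrome P450, had 0.762, 0.407, 6.59 and 0.278 CPM in control and at most 0.481 CPM elsewhere (log2 2.80 ± 0.627, edgeR adjusted p = 0.0403). Without control replicate 3 its log2 difference was 0.70 with an adjusted p of 0.782 in edgeR, and over 21 alternatives the adjusted p ranged from 0.00262 to 0.782, with the call kept in 8. CG17105 had 3.17, 4.25, 0.878 and 10.7 CPM in control and at most 2.34 CPM elsewhere (log2 2.66 ± 0.523, edgeR adjusted p = 0.0192). Without control replicate 4 it was at 1.91 with an edgeR adjusted p of 0.161, in a range of 0.000771 to 0.161 over the alternatives. Its call was kept in 20 of the 21.

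Of the genes lower in control, several low-count transcripts were nearly absent there. LncRNA:CR40469 had 0.381, 0.316, 0.384 and 0.371 CPM in control, and 5.81 to 45.3 CPM over the 12 other libraries (log2 -5.74 ± 0.530, edgeR adjusted p = 2.44e-05). CR44383, lncRNA:CR44608 and Cyp4p1 stayed at or under 3 counts in every control library, so no fold change is given. CR44383 had 3.71 to 4.84 CPM with ATF4 RNAi added and 3.26 to 5.69 CPM in the libraries labelled ATF4 overexpression, but at most 0.128 CPM in TFAM overexpression. Cyp4p1 had 5.47 to 8.49 CPM in the libraries labelled ATF4 overexpression and at most 0.308 CPM in the others, and its call was kept in 17 of 21 alternatives (lost without control replicate 2, 3 or 4, among others, in a range of edgeR and DESeq2 adjusted p from 0.00184 to 0.0741). LncRNA:CR44608 had 0.348 to 1.67 CPM over the other genotypes. The P450 gene Cyp6t3 had 0.220 to 1.40 CPM in control, and 11.5 to 17.5 CPM in TFAM overexpression and 13.2 to 18.0 CPM with ATF4 RNAi added, but 0.217 to 0.992 CPM in the libraries labelled ATF4 overexpression (log2 -2.70 ± 0.340, edgeR adjusted p = 0.000448).

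Within the CNS lists, called members were few. No pan-neuronal, neuroblast, new-born neuron, timing, division or glial gene was called, and neither was any of 80 cytosolic or 71 mitochondrial ribosomal protein genes tested. Over all genes tested, 1024 (10.5%) had an unadjusted p under 0.05 in edgeR. They included 2 of the cytosolic and 1 of the mitochondrial ribosomal genes, and 1 of 8 neuroblast, 1 of 6 new-born neuron, 2 of 6 general glial, 2 of 2 cortex glial and 3 of 5 astrocyte-like or ensheathing glial genes. DESeq2 called 1 of the new-born neuron genes and none of the other lists just named. With the length slope of each library as a covariate, edgeR called tap, a factor of new-born neurons, and alrm of astrocyte-like glia. Hsp70Bb was lower in control, with 27.2, 31.4, 11.3 and 22.1 CPM against 63.5 to 198 CPM in the other genotypes (log2 -2.33 ± 0.243, edgeR adjusted p = 5.94e-05), and no control library overlapped the others. Its copies are near-identical, so the division of reads between them is uncertain. Arc1, a capsid-forming gene of synapses, was lower in control than in both TFAM genotypes, with 84.7 to 109 CPM against 208 to 310 and 204 to 259 CPM, but the libraries labelled ATF4 overexpression had 58.5 to 80.3 CPM (log2 -0.69 ± 0.116, edgeR adjusted p = 0.00664).

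Among neuropeptide precursors 4 of 31 tested were called, all higher in control, beside 0.760% of all genes tested. The median log2 difference was 0.37 over the list and 0.01 over all genes. Other lists of short genes were also above all genes, at 0.252 for cytosolic ribosomal, 0.242 for mitochondrial ribosomal, 0.258 for complex I and 0.063 for proteasome genes. The neuropeptide list has a median exon length of 1153 bases, and the part of length in its median was not tested. With the length slope as a covariate, 6 of the 31 were called, beside 237 of 9731 genes. In edgeR 16 of the 31 had an unadjusted p under 0.05, beside 10.5% of all genes. Dh31, a diuretic hormone, had 54.2, 57.7, 59.1 and 67.4 CPM in control and 36.0 to 48.2 CPM in the others (log2 0.46 ± 0.077, edgeR adjusted p = 0.00642). Myosuppressin (Ms) had 98.8, 116, 114 and 127 CPM in control and 59.5 to 106 CPM in the others (log2 0.56 ± 0.092, edgeR adjusted p = 0.00584). Dh31 did not overlap between groups and Ms did in 1 genotype, and both were called under all 21 alternatives. Ilp3 (log2 1.04 ± 0.229, edgeR adjusted p = 0.0375) and Pburs, a subunit of the hormone bursicon (log2 1.12 ± 0.233, edgeR adjusted p = 0.0258), were called too. Ilp3 lost its call in edgeR without control replicate 2 (adjusted p = 0.0561), 3 (0.199, at a log2 difference of 0.63) or 4 (0.0529), and held it in only 3 of 16 refits, each lacking 1 library of any genotype. Its adjusted p over the alternatives ranged from 0.00271 to 0.199. Pburs lost its call in edgeR without control replicate 2 (adjusted p = 0.0722), 3 (0.0539) or 4 (0.145) and held it in 9 of those 16 refits, in a range from 0.000948 to 0.145. The octopamine enzyme Tdc2 had 6.81 to 14.5 CPM in control and 3.96 to 7.35 CPM in the others (log2 0.78 ± 0.161, edgeR adjusted p = 0.0250). Without control replicate 2 or 4 its edgeR adjusted p was 0.0699 or 0.141, in a range from 0.00106 to 0.141, and the call held in 13 of those 16 refits.

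Attached tissues also gave calls. Of the 7 fat body genes, 3 were called higher in control, beside 0.760% of all genes tested. The median log2 difference over the list was 1.35. In edgeR an unadjusted p under 0.05 was found for 6 of these 7 and for 5 of 5 larval cuticle genes tested, beside 10.5% of all genes. Lsp1beta had 34.6 to 76.9 CPM in control and 9.93 to 61.0 CPM in the others (log2 1.30 ± 0.290, edgeR adjusted p = 0.0403), Lsp2 had 4.03 to 18.0 CPM and 1.08 to 7.39 CPM (log2 1.75 ± 0.372, edgeR adjusted p = 0.0302), and Fbp2 had 7.86 to 68.6 CPM and 2.97 to 15.8 CPM (log2 1.91 ± 0.435, edgeR adjusted p = 0.0459). The 3 calls were lost without control replicate 1 (adjusted p of 0.125, 0.0664 and 0.0926) and without control replicate 3 (0.0829, 0.195 and 0.302), in the order Lsp1beta, Lsp2 and Fbp2, and Lsp1beta was also lost without control replicate 2 (0.110). They held in 4, 7 and 5 of the 16 refits, and their lowest adjusted p under any alternative was 0.00377, 0.00148 and 0.0149. The cuticle gene Lcp3 was higher in control (log2 2.46 ± 0.509, edgeR adjusted p = 0.0252), at 1.53 with an adjusted p of 0.264 without control replicate 4 and with a range from 0.00174 to 0.264 over the alternatives, and its call held in 10 of the 16 refits. Prothoracic gland genes had a median log2 difference of 1.86 with 0 of 5 called. One of the 5 had an unadjusted p under 0.05, and DESeq2 called none.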

How the data were processed

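PolyA libraries of 20 CNSs each were prepared with a stranded kit and read as 75-bp single ends. The authors mapped reads to dm6 with Bowtie2 2.3.4.2, which does not splice reads, and counted them per gene with featureCounts 1.6.3, both at default settings. Under these the counter does not use strand and leaves out reads that overlap several genes. The deposited values are raw counts for 17698 genes, with no normalization. The annotation used for counting is not given in the sources used here. Names, positions and exon lengths came from the annotation of BDGP release 6 (Ensembl release 115), which matched 17560 identifiers and left 138 unmatched, and older symbols were replaced (hdc by heca, phm by phtm, Trh by Trhn).

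CPM used the total count of each library. TPM used summed exon length. Detection required 1 CPM in every control library, and spread was the SD of log2(CPM + 1) over genes with a mean of at least 5 CPM. The trend with exon length was removed per library by a fitted line. Control was compared with the mean of the other 3 genotypes in R 4.3.3 with edgeR 4.0.16 (TMM, filterByExpr, quasi-likelihood test), with genotype as the only term, and DESeq2 1.42.0 as an alternative. The comparison was also run on simulated counts. These had the same biological variation for every gene and no exon length trend, so they do not give the error rate in these libraries. Adjustment followed Benjamini and Hochberg over all genes tested. Every pair of control libraries differed beyond counting noise (chi-square of 13.6 to 397 per degree of freedom), and each counted as 1 sample.

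The text names the 20 genes with the largest mean CPM, the 10 with the largest mean TPM among genes with at least 300 bases of exon, list members, the 20 most and 10 least variable genes, the 10 leading long noncoding RNAs, and the 5 called genes with the largest rise and the 5 with the largest fall. A gene that this rule names is not reported here. NLaz, Pepck2 and TFAM were named after their values were seen. Members and lists were chosen with earlier results of these data known. The genes nvd, betaTub60D and Nplp2 of the lists had no match.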

Additional observations from a re-analysis of the deposited data

Results flagged for a closer look

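In 40 of the 192 sets of 4 control values examined (list sums and genes named with a value per library), 1 library lay far from the other 3, where chance flags about 1 in 20. The sets share libraries and are not independent, and 30 of them are genes chosen for their large or small spread over these same libraries, which gave 11 of the 40, so the count is a description only. Replicate 4 was the high library in 20 and the low one in 1, replicate 3 the low one in 10 and the high one in 7, and replicate 1 the high one in 2.

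Replicate 4 was far above the others in the summed CPM of glycolysis (9420), muscle (265) and salivary gland (37.7) genes. The single genes were the muscle genes Mhc (22.8 CPM) and Act57B (66.2 CPM), the glue genes Sgs3 (11.2 CPM) and Sgs7 (12.7 CPM), Lcp3 (66.8 CPM), Gapdh2 (1884 CPM), Eno (1576 CPM) and the sodium pump subunit nrv2 (440 CPM). Genes almost confined to it were CG32198 (106 CPM), CG13460 (124 CPM), CG11300 (106 CPM), CG12310 (67.8 CPM), ng3 (46.5 CPM), CG17134 (30.8 CPM), Pig1 (28.8 CPM), CG13560 (20.7 CPM) and CG43117 (24.4 CPM). It was the low library for Chi, at 136 CPM against 137 CPM in the others.

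Replicate 3 was far below the others in the summed CPM of neuroblast (522) and nicotinic receptor (510) genes. Its low single genes were eEF2 (3077 CPM), cherub (1210 CPM), mimi (92.6 CPM), ase (61.9 CPM), nSyb (280 CPM), Syt1 (236 CPM), Imp (71.1 CPM) and Antp (39.3 CPM). It was far above the others for RpL41 (5738 CPM), RpLP2 (6158 CPM), RpL23 (3998 CPM), RpL38 (5473 CPM), His4r (2983 CPM), CR30009 (242 CPM) and Ilp3 (109 CPM). Replicate 1 was far above the others in the midgut sum (4.57 CPM) and for Jon65Aiii (1.82 CPM). What set these libraries apart was not tested.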

How the results depend on the processing

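With 4 libraries of 1 genotype, the description is limited mainly by replicate 3, whose level follows exon length, and by the tissue genes of replicate 4. The median spread of 0.297 was 0.162 with the exon length trend removed, and it lay between 0.131 and 0.342 when 1 control library was left out, with the lowest value without replicate 3. The count of detected genes, 8263 at 1 CPM, was 7349 at 5 CPM and 8758 at 0.5 CPM. The ribosomal protein share was 11.2% to 15% with 1 library left out.

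For control against the other 3 genotypes, 116 genes were called, and DESeq2 called 217, of which 112 were shared. With each library's length slope as a covariate 237 genes were called, of which 110 were shared, and 51.5% were higher in control in place of 63.8%. Leaving out 1 library gave 76 to 162 calls, the lowest without control replicate 3 and the highest without TFAM overexpression replicate 2. All 235 recomputed sums of the lists stayed within 1 SD of the control libraries. Leaving out 1 control library cannot move a mean that far, so for those refits the outcome was fixed in advance. Recomputed median spreads were set against the SD of the medians with 1 control library left out, which are themselves among the values judged. Of these spreads, 318 changed by less and 76 by more. For the 10 genes of largest difference, 192 recomputed calls held and 18 were lost, and for the 11 called list members named, 166 held and 65 were lost, none with a change of direction.

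Replicate numbers were shared between genotypes. Same-numbered libraries deviated together (a correlation over 0.1) for 2 of the 4 numbers shared with TFAM overexpression, 3 of 4 where ATF4 RNAi was added and 1 of 4 in ATF4 overexpression. For control replicate 1 the correlation was 0.507, 0.576 and 0.555 with replicate 1 of these genotypes. Differently numbered libraries were not compared, so these values cannot decide whether the numbers pair the libraries. The main test did not pair them. With a replicate block, 100 genes were called, 90 of them shared.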
